A study of Mus musculus with 40 samples.

Results

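Interferons are secreted proteins that warn cells of infection. Type I interferon (through the receptor chains Ifnar1 and Ifnar2) and type II interferon (through Ifngr1 and Ifngr2) activate Janus kinases and through them transcription factors of the Stat family, which switch on several large gene families. These families encode proteins that sense foreign nucleic acid, block viral RNA or attack the vacuoles of intracellular microbes. Some members are also made at a steady level by resident immune cells, so their RNA in whole heart can come from several cell types.

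The genes described here were those whose symbol begins with *Gbp*, *Ifi* or *Irf* and a digit, or with *Ifit*, *Oas*, *Irgm* or *Isg*, together with *Igtp*, *Iigp1*, *Rsad2*, *Mx1*, *Mx2*, *Bst2*, *Usp18*, *Xaf1* and *Zbp1*. The rule found 74 genes of the 17831 listed in either expression table. Of these 73 were in the male table and 73 in the female table, with 72 in both. *Gbp11* was listed only for males and *Gbp2b* only for females. They comprised 9 interferon regulatory factors (Irf), 3 proteins that bind Irf2, 11 genes of the Ifi200 family, 11 guanylate-binding proteins (Gbp), 5 immunity-related GTPases, 2 Mx GTPases, 6 Ifit proteins, 6 Ifitm membrane proteins, 8 Oas and Oasl proteins, *Isg15* with *Usp18*, and 11 others.

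RNA was sequenced from the hearts of male and female CM-Il11-Tg mice, in which tamoxifen starts murine *Il11* expression in cardiomyocytes. These mice carry 1 copy of the inducible MerCreMer recombinase under the α-MHC promoter, which is active in cardiomyocytes, and 1 copy of the Rosa26-Il11 transgene, and hearts were taken 1, 3 and 6 weeks after induction at 8 weeks of age. Control mice were littermates that carried MerCreMer but no transgene and received tamoxifen, and uninduced mice were CM-Il11-Tg mice without tamoxifen. The time from tamoxifen to tissue collection in controls is not given in the labels, MerCreMer is present in every group, and the parent lines were kept on the C57BL/6J and C57BL/6N backgrounds. Each group had 4 libraries, 1 per mouse, except male controls and male 6-week hearts, which had 3. The other 2 of the 40 libraries, both male, have labels that conflict and entered no comparison.

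*Il11* was 0 to 0.147 CPM (the reads of a gene scaled to the size of its library) in male controls and 407 to 819 CPM in males at 6 weeks, and 0 to 0.166 against 328 to 590.5 CPM in females. In uninduced hearts it was 16.5 to 23.3 CPM in males and 15.5 to 49.2 CPM in females, so this group is not free of the transgene's RNA. All 8 cardiomyocyte markers were measured in both sexes, with a summed level of at least 31440 CPM in every group. The fall of this sum after induction is given with the other cell markers below. Between 16663513 and 65333832 reads per male library and 19147947 and 30929192 per female library fell on listed genes. Some libraries stood apart. Replicate 1 of the male 3-week group was high in interferon-induced GTPases. In females 5 libraries (replicate 4 of uninduced, replicate 2 at 1 week and replicates 2, 3 and 4 at 6 weeks) were set apart as low in the member *Oas1b*. They had 0.567 to 1.34 CPM of it, against 2.42 to 4.44 CPM in the other 15. These 5 all lay below the other 15 for 912 of 16928 genes (5.39%) and above them for 85 (0.502%). Total member counts for females at 6 weeks and males at 3 weeks are given with and without the libraries that stood apart, and counts from lists only with them. Without the 5, the female 6-week group is 1 library, so a call lost there can come from the lost replicates.

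The member with the largest rise belongs to the Ifi200 family, whose proteins bind DNA in the nucleus or cytosol and whose 11 genes lie side by side on chromosome 1 (GRCm39, 173296051 to 173859456). *Ifi205* (ENSMUSG00000054203, chromosome 1, 173839549 to 173859456) rose most. In males it was 15.1, 13.1 and 14.8 CPM in the 3 controls, 44.0, 33.3, 30.5 and 30.1 CPM in the 4 uninduced hearts, 107, 76.7, 93.8 and 70.6 CPM at 1 week, 105, 77.4, 101.5 and 97.0 CPM at 3 weeks, and 85.3, 126.5 and 68.6 CPM at 6 weeks. In females it was 15.8, 11.4, 13.5 and 13.2 CPM in controls, 38.8, 21.97, 66.6 and 34.4 CPM in uninduced hearts, 96.9, 78.8, 98.6 and 76.4 CPM at 1 week, 71.8, 59.96, 83.5 and 85.5 CPM at 3 weeks, and 77.7, 78.6, 94.3 and 68.7 CPM at 6 weeks. No uninduced or induced heart overlapped the controls in either sex, and the lowest induced heart of the males lay above the highest uninduced one. In females 1 uninduced heart, replicate 3, reached the range of the 3-week hearts. This is also the uninduced female library with the highest *Il11*, 49.2 CPM.

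At 6 weeks *Ifi205* was higher than control by 2.62 ± 0.20 on the log2(CPM + 0.5) scale in males (SE, adjusted p = 7.57e-09, limma) and by 2.52 ± 0.22 in females (adjusted p = 1.03e-08, limma). Its neighbour *Ifi211*, a DNA-binding member of the same family, rose by 2.18 ± 0.20 in males and 2.18 ± 0.19 in females. Across the 18 male and 20 female libraries *Ifi211* was also the gene whose log2 values were most like those of *Ifi205* (Pearson r = 0.993 and 0.997). The next most like genes were the complement genes *C1s1* (0.985), *C1ra* (0.980) and *C3* (0.980) and the matrix gene *Comp* (0.979) in males, and *Nfasc* (0.978), *Aldh1a2* (0.976), *Csf2rb2* (0.974) and *Il1r1* (0.973) in females. These libraries share the same groups, so the coefficients mostly describe the difference between groups. Genes of the Ifi200 family are close copies of one another, and reads they share could have been split or dropped in counting, so the level of a single member is uncertain.

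The family did not move as a block. In males 5 of 11 members were higher at 6 weeks and none lower (*Ifi204*, *Ifi205*, *Ifi207*, *Ifi209* and *Ifi211*), and the median log2 fold change was 0.49. In females 7 of 11 were higher, with *Ifi206* and *Ifi214* added, and the median was 0.96. Of all genes tested, 16.2% were higher and 10.9% lower at 6 weeks in males, and 21.7% and 21% in females. The female call of *Ifi206* was lost without the 5 libraries that stood apart. *Ifi214*, another DNA-binding member, was 0.46, 0.81 and 0.44 CPM in males at 6 weeks and 0.06 to 0.26 CPM in uninduced males, and passed the test against uninduced (log2 0.70 ± 0.19, adjusted p = 0.012, limma) but not against control. *Ifi203* and *Ifi203-ps* were lower in females at 6 weeks, which is the direction opposite to that of their neighbours. *Ifi203-ps* was 2.19, 3.23 and 2.13 CPM in the 3 female 6-week libraries that stood apart and 6.66 CPM in the other, against 9.24 to 11.5 CPM in controls. Without the 5 libraries, which leaves 1 female 6-week heart, its difference from control was -0.62 and that of *Ifi203* was -0.36, neither called. In that fit *Ifi203-ps* was called lower in females at 1 and 3 weeks, where the remaining hearts had 5.62 to 8.11 CPM. In males *Ifi203-ps* was lower at 1 week with all libraries.

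*Ifi30* (ENSMUSG00000031838, chromosome 8, 71215403 to 71219334), a lysosomal thiol reductase that prepares antigens for presentation on MHC class II, had the second largest rise. In males it was 5.32, 4.88 and 7.65 CPM in controls, 7.78, 8.21, 8.26 and 5.67 CPM in uninduced hearts and 31.8, 28.7 and 27.8 CPM at 6 weeks. The female values were 5.81, 6.53, 5.80 and 7.98 CPM in controls, 8.42, 6.26, 8.90 and 8.25 CPM in uninduced hearts and 37.9, 48.4, 39.3 and 33.3 CPM at 6 weeks. In both sexes uninduced hearts overlapped controls, and all 6-week hearts lay above both. The log2 fold change at 6 weeks was 2.24 ± 0.19 in males (adjusted p = 3.55e-08, limma) and 2.51 ± 0.17 in females (adjusted p = 3.26e-10, limma). *Zbp1*, a sensor of left-handed nucleic acid that can start necroptosis, rose from 1.06 to 2.44 CPM in male controls to 6.26 to 7.72 CPM at 6 weeks, and from 0.904 to 1.45 CPM in female controls to 7.33 to 10.7 CPM.

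**Figure D1:**
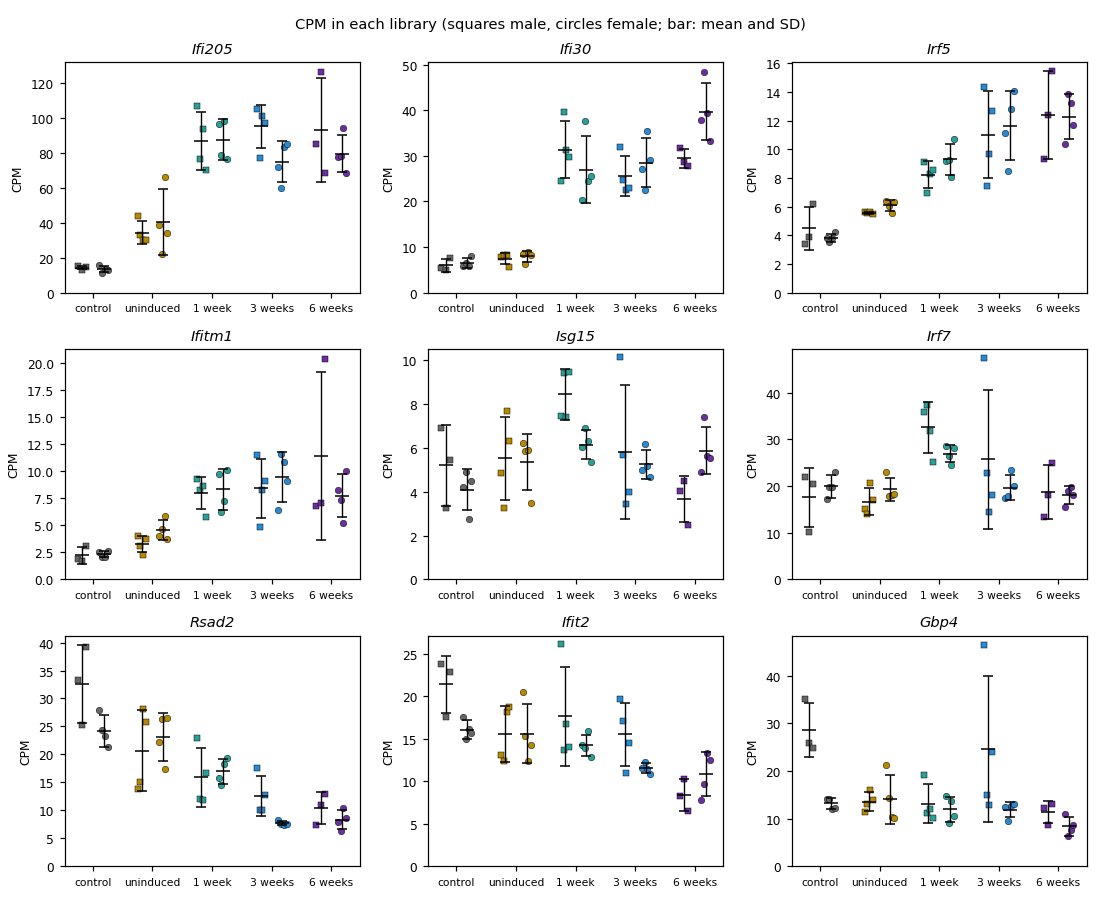
CPM of 9 members in each library (vertical axis, linear, from 0), for control, uninduced and 1, 3 and 6 weeks (horizontal axis), with squares for males, circles for females, and bars for the mean and SD. *Ifi205* is raised in uninduced hearts and higher after tamoxifen, *Ifi30* is raised only after tamoxifen, *Irf7* is highest at 1 week apart from 1 male 3-week library at 47.5 CPM, and at 6 weeks *Rsad2* and *Ifit2* lie below all controls.

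*Rsad2* had the largest fall in males and, after *Ifi203-ps*, the largest in females (ENSMUSG00000020641, chromosome 12, 26492745 to 26506451), with its gene on the minus strand. It encodes viperin, an enzyme that makes a chain-terminating nucleotide against viral RNA synthesis and a standard marker of the type I interferon response. In males it was 33.2, 25.3 and 39.3 CPM in controls, 13.8, 15, 28.2 and 25.8 CPM in uninduced hearts, 22.9, 12.1, 11.8 and 16.7 CPM at 1 week, 17.5, 9.99, 10.02 and 12.7 CPM at 3 weeks and 7.31, 10.9 and 12.9 CPM at 6 weeks. In females it was 27.99, 24.3, 23.3 and 21.2 CPM in controls, 22.2, 26.2, 17.4 and 26.5 CPM in uninduced hearts, 15.7, 14.5, 18.3 and 19.3 CPM at 1 week, 8.33, 7.52, 7.37 and 7.61 CPM at 3 weeks and 7.81, 6.36, 10.4 and 8.66 CPM at 6 weeks. Controls and induced hearts did not overlap at any week in either sex. The log2 fold change at 6 weeks was -1.62 ± 0.30 in males (adjusted p = 0.000377, limma) and -1.50 ± 0.14 in females (adjusted p = 5.38e-08, limma). Females had less *Rsad2* at 6 weeks than at 1 week (log2 -0.995 ± 0.14, adjusted p = 0.00055, limma).

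The regulatory sequence before these genes is shown because members with the same kind of motif moved in opposite directions. Each line holds the 250 bases before the start of transcription from RefSeq (assembly GRCm38.p6, whose coordinates differ from those of GRCm39 above), read 5′ to 3′ on the gene's strand. Capitals mark matches to the core of the interferon-stimulated response element (TTTC, any 2 bases and TTTC again, or its reverse complement), which the complex that holds Stat2 and Irf9 is known to bind, or to the site of a Stat dimer (TTCNNNGAA). *Ifi205* and *Ifi30* had the largest rises and *Rsad2* had the largest fall in males. *Isg15* (3 overlapping matches) and *Igtp* (1 of each kind) were added after their values were seen.
Ifi205, minus strand, chr1:174031756-174032005: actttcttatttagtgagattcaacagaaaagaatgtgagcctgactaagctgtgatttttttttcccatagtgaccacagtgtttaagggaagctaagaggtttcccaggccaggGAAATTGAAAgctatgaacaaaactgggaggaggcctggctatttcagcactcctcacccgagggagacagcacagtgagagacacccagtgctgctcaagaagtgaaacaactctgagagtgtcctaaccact
Ifi30, minus strand, chr8:70766664-70766913: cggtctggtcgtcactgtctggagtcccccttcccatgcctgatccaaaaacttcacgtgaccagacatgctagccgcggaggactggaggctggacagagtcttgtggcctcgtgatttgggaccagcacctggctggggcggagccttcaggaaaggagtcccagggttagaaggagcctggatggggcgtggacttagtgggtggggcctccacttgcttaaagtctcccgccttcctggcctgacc
Rsad2, minus strand, chr12:26456453-26456702: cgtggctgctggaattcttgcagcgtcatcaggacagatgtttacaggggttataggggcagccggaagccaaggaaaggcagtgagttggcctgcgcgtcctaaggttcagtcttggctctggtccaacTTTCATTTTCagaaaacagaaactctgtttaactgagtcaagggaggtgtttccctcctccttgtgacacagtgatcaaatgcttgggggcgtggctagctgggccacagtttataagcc
Isg15, minus strand, chr4:156200819-156201068: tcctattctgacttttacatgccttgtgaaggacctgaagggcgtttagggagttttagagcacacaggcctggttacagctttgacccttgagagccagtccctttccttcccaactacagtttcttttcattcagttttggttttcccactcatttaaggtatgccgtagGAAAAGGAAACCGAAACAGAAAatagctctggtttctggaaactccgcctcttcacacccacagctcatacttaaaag
Igtp, plus strand, chr11:58199306-58199555: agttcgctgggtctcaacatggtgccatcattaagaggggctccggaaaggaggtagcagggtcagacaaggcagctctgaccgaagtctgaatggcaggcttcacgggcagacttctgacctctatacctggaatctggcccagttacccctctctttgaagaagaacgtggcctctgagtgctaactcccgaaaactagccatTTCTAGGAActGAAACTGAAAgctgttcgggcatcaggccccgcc

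The response-element core begins 134 bases before the start in *Ifi205* and 120 bases before it in *Rsad2*, and *Ifi30* has no match to either motif in the bases shown. Over windows from 250 bases before to 50 after the start, searched on both strands, 31 of the 56 members with a window (55.4%) held the core, against 3.99% of 27025 genes. A Stat dimer site was found in 15 of 56 members (26.8%), against 9.55% of genes. Among the members higher at 6 weeks in both sexes 6 of 12 with a window held the core, among those lower in both 2 of 3, and among those past the test in neither 8 of 19. A match to these letters is a description of the sequence and not evidence of binding.

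Across all members, more were higher than lower than control at each week. A member was counted where its adjusted p was under 0.05 in limma over all genes tested, and 72 members were tested in each sex. In males at 6 weeks 20 members were higher, against a background of 16.2% of all 16931 genes tested, and 8 were lower, against 10.9%, so 27.8% and 11.1% of members. In females at 6 weeks 32 were higher, against 21.7% of 16956 genes, and 10 were lower, against 21%, so 44.4% and 13.9% of members. The median log2 fold change of the members was 0.12 in males and 0.21 in females, against -0.01 and -0.02 for all genes. Without the 5 female libraries that stood apart the female 6-week group is 1 library, assumed to vary like the others, and 20 members were higher (11.5% of all genes) and 3 lower (8.12% of all genes), 22 of them also called with all libraries.

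At 1 week 25 members were higher in males (background 18.9%) and 6 lower (background 14.6%), and 30 were higher in females (background 15.3%) and 3 lower (background 13.1%). At 3 weeks 23 were higher in males (background 13.2%) and 3 lower (background 8.1%), and 26 were higher in females (background 16.8%) and 7 lower (background 14.5%). Without replicate 1 of the male 3-week group, 18 members were higher (11.8% of all genes) and 6 lower (7% of all genes). Between 6 weeks and 1 week no member passed the test in males, where 0.13% of all genes were higher and 0.0354% lower. There 18 of 72 members had an unadjusted p under 0.05 and DESeq2 called 5, with no share of all genes to set either count against. In females none was higher (background 0.891%) and 2 were lower (background 0.142%), *Rsad2* and *Irf7*, while 22 had an unadjusted p under 0.05.

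**Figure D2:**
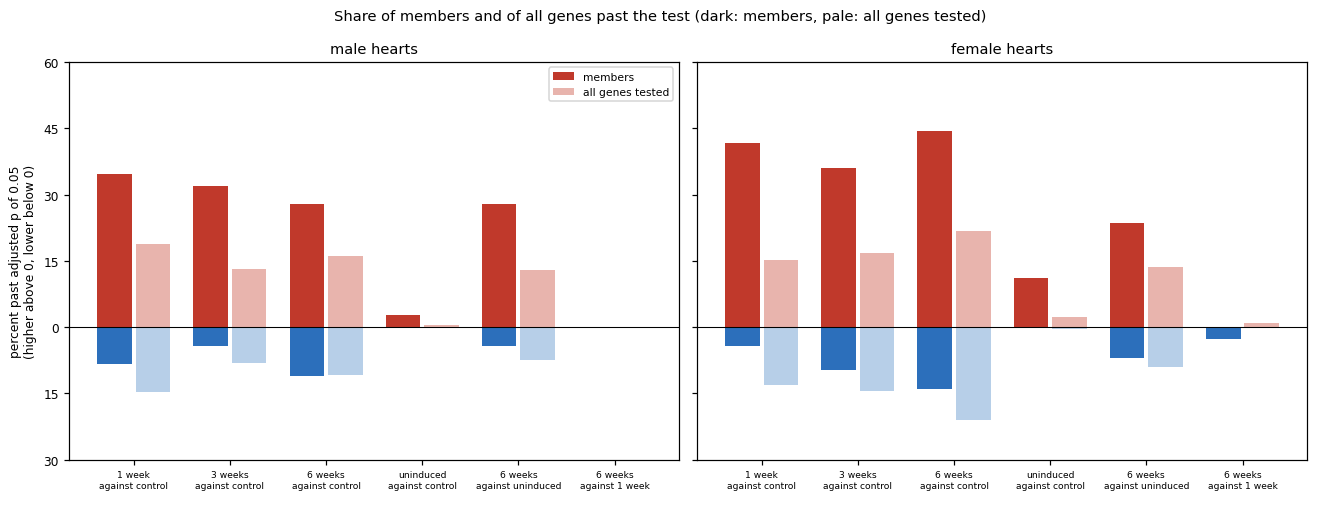
Percent of members (dark bars) and of all genes tested (pale bars) with an adjusted p under 0.05 in limma, higher (above 0) or lower (below 0), in 6 comparisons for each sex. The share of members that were higher exceeds that of all genes in each comparison of induced or uninduced hearts with control, for example 44.4% against 21.7% in females at 6 weeks. The share that were lower is below that of all genes at 1, 3 and 6 weeks except in males at 6 weeks, where it is 11.1% against 10.9%.

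Of the 71 members tested in both sexes, 17 were higher at 6 weeks in both, where 12.9% of 16627 genes were, and 5 were lower in both, where 6.91% of genes were. The higher ones were *Ifi204*, *Ifi205*, *Ifi207*, *Ifi209*, *Ifi211*, *Ifi27*, *Ifi27l2a*, *Ifi30*, *Ifitm1*, *Ifitm2*, *Ifitm3*, *Irf4*, *Irf5*, *Irf8*, *Mx1*, *Oas3* and *Zbp1*. The lower ones were *Gbp4*, *Gbp9*, *Ifit1bl2*, *Ifit2* and *Rsad2*. Without the 5 female libraries *Irf4*, *Ifi27l2a*, *Gbp4* and *Gbp9* lost their female call. Another 24 passed the test in neither sex, among them *Ifit1*, *Ifit3*, *Irf1*, *Irf7*, *Irf9*, *Mx2*, *Oasl1*, *Oasl2* and *Usp18*. At 1 week 21 members were higher and 2 lower in both sexes (10.9% and 6.32% of all genes), and at 3 weeks 20 and 3 (11.3% and 5.91%). Of those 20, *Ifi206*, *Ifitm2*, *Oas1a* and *Oas1g* lost their male call without replicate 1.

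**Figure D3:**
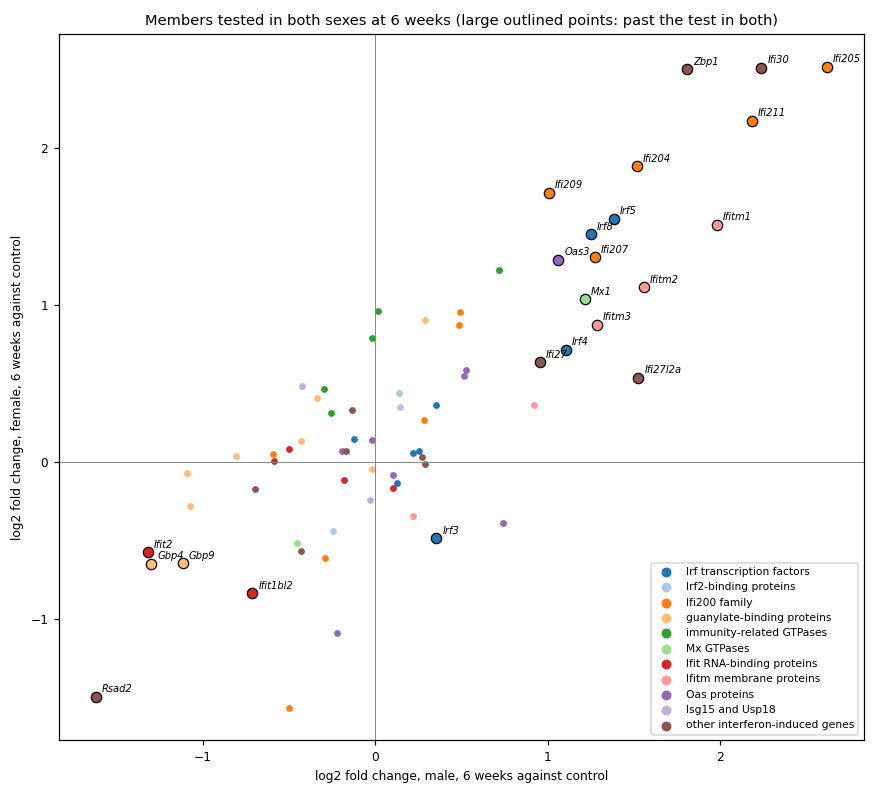
Log2 fold change of each member at 6 weeks against control in males (horizontal axis) and females (vertical axis), 1 point per gene, coloured by family, with large outlined and named points for members past an adjusted p of 0.05 in both sexes. *Ifi204*, *Ifi205*, *Ifi207*, *Ifi209*, *Ifi211*, *Ifi30*, *Zbp1*, *Ifitm1*, *Ifitm2* and *Ifitm3* lie at the upper right, and *Rsad2*, *Ifit2*, *Gbp4* and *Gbp9* at the lower left. *Irf3* is the only named point at the lower right.

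Among the transcription factors, *Irf5*, *Irf8* and *Irf4* rose at 6 weeks, and *Irf1*, *Irf7* and *Irf9* did not pass the test then. *Irf3* was called in opposite directions in the sexes. *Irf5*, which drives inflammatory cytokine genes in macrophages, was 3.37, 3.90 and 6.17 CPM in male controls and 9.35, 12.4 and 15.5 CPM at 6 weeks, and 3.83, 3.53, 3.80 and 4.21 CPM in female controls and 10.4, 13.8, 13.2 and 11.7 CPM at 6 weeks. Its groups did not overlap, and the log2 fold change was 1.38 ± 0.22 in males (adjusted p = 0.000116, limma) and 1.55 ± 0.13 in females (adjusted p = 9.65e-09, limma). *Irf8*, which directs macrophage and dendritic cell development, rose by 1.25 ± 0.19 and 1.45 ± 0.11. *Irf4*, a factor of lymphocytes and of some macrophages, reached at most 2.89 CPM and rose by 1.11 ± 0.24 and 0.72 ± 0.22, and in females it lost its call without the 5 libraries.

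*Irf7*, the factor that amplifies type I interferon production, was raised only at 1 week. In males it was 21.96, 10.2 and 20.4 CPM in controls, 35.9, 37.4, 31.8 and 25.2 CPM at 1 week, 47.5, 22.7, 14.4 and 18.1 CPM at 3 weeks, and 13.4, 18.1 and 24.8 CPM at 6 weeks. Female hearts had 17.1, 19.7, 19.7 and 23.1 CPM in controls, 28.6, 26.5, 24.4 and 28.2 CPM at 1 week, 17.4, 17.8, 23.3 and 20.1 CPM at 3 weeks, and 15.5, 18.99, 19.8 and 18 CPM at 6 weeks. All hearts at 1 week lay above all controls. The log2 fold change at 1 week was 0.93 ± 0.31 in males (adjusted p = 0.0273, limma) and 0.43 ± 0.11 in females (adjusted p = 0.00707, limma). In females it was lower at 6 weeks than at 1 week (-0.57 ± 0.11, adjusted p = 0.0133, limma), a call lost without the 5 libraries.

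*Irf1*, an early interferon-induced factor, was 16.2 to 20.5 CPM in male controls and 15.4 to 20.1 CPM at 6 weeks, and 15.3 to 21.6 against 12.6 to 27.2 CPM in females. *Irf9*, the DNA-binding partner of Stat2, was 18.6 to 26.2 CPM in male controls and 22.6 to 33.9 CPM at 6 weeks, and 20.3 to 25.7 against 22.8 to 27.99 CPM in females. Both overlapped between groups and neither passed the test. In females without the 5 libraries *Irf9* was called higher at 1 and 3 weeks. *Irf3*, which is switched on downstream of nucleic acid sensors, was the only member called in opposite directions, with log2 0.36 ± 0.13 in males (adjusted p = 0.0443, limma) and -0.49 ± 0.19 in females (adjusted p = 0.0452, limma). In the females, values were 29.6, 19.2, 16.2 and 21.9 CPM at 6 weeks, with only replicate 1 in the control range of 26.4 to 32.6 CPM. Without the 5 libraries the female difference was -0.02 (adjusted p = 0.963, limma). *Irf2bp2*, a corepressor that binds Irf2, was 55.1 to 73.1 CPM in male controls and 40.7 to 62.3 CPM at 6 weeks, and did not pass the test in either sex then. It was lower in females at 1 week (-0.70 ± 0.20, adjusted p = 0.0115, limma) and 3 weeks. In males at 3 weeks it was lower only without replicate 1 (-0.78 ± 0.18, adjusted p = 0.00443, limma).

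The Ifitm proteins, which sit in membranes and hinder the entry of enveloped viruses, rose in part. At 1, 3 and 6 weeks 18.9%, 13.2% and 16.2% of all genes tested were higher in males, and 15.3%, 16.8% and 21.7% in females. In males 4 of 5 tested members were higher at each week, *Ifitm2* at 3 weeks not without replicate 1 (adjusted p = 0.0721, limma), and in females 3 of 6, namely *Ifitm1*, *Ifitm2* and *Ifitm3*, which lie with *Ifitm5* and *Ifitm6* close together on chromosome 7. *Ifitm1* was 1.87, 1.70 and 3.09 CPM in male controls and 6.80, 7.10 and 20.4 CPM at 6 weeks, with replicate 4 far above the other 2. In females it was 2.50, 2.08, 2.101 and 2.60 CPM in controls, 4.00, 4.61, 5.82 and 3.72 CPM in uninduced hearts and 8.28, 7.35, 5.23 and 10.02 CPM at 6 weeks. The log2 fold change at 6 weeks was 1.98 ± 0.34 in males (adjusted p = 0.000212, limma) and 1.51 ± 0.20 in females (adjusted p = 4.02e-06, limma), and no 6-week heart overlapped controls.

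The Ifit family, whose proteins bind viral RNA ends and are among the genes most induced by type I interferon, did not rise. None of its 6 members on chromosome 19 was higher at 6 weeks in either sex, and *Ifit2* and *Ifit1bl2* were lower in both (6.91% of all genes were). *Ifit2* was 23.8, 17.6 and 22.8 CPM in male controls, 13.1, 12.4, 18.1 and 18.7 CPM in uninduced males, and 8.30, 10.2 and 6.51 CPM at 6 weeks. The female values were 17.5, 14.95, 16.1 and 15.6 CPM in controls, 20.5, 15.3, 12.4 and 14.3 CPM in uninduced hearts, and 7.73, 9.71, 13.3 and 12.48 CPM at 6 weeks. The 6-week hearts lay below all controls, by -1.32 ± 0.24 in males (adjusted p = 0.000431, limma) and -0.58 ± 0.15 in females (adjusted p = 0.00364, limma), and *Ifit2* was also lower than in uninduced hearts in both sexes. *Ifit1*, which recognises RNA lacking a host cap, was 6.67 to 12.52 CPM in male controls and 5.95 to 9.04 CPM at 6 weeks, and 7.16 to 9.73 against 6.70 to 9.11 CPM in females. It passed the test only in females at 1 week (log2 0.40 ± 0.14, adjusted p = 0.0372, limma), a call lost without the 5 libraries.

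*Isg15*, a ubiquitin-like protein that is joined to other proteins during the interferon response, and *Usp18*, the protease that removes it and restrains the receptor, overlapped controls in males at 6 weeks. *Isg15* was 6.90, 3.26 and 5.44 CPM in male controls, 7.46, 9.41, 7.41 and 9.48 CPM at 1 week, and 4.06, 4.48 and 2.50 CPM at 6 weeks. In females it was 4.22, 4.89, 2.75 and 4.49 CPM in controls, 6.05, 6.92, 6.31 and 5.34 CPM at 1 week, and 4.92, 7.43, 5.62 and 5.55 CPM at 6 weeks. The male difference at 6 weeks did not pass the test (log2 -0.43 ± 0.33, adjusted p = 0.366, limma), and female hearts lay just above them (0.49 ± 0.18, adjusted p = 0.0307, limma), a call lost without the 5 libraries. *Usp18* was 2.65 to 6.78 CPM in male controls and 3.79 to 4.83 CPM at 6 weeks, and 4.39 to 6.21 against 3.58 to 4.93 CPM in females, and did not pass the test in any comparison with control.

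The 8 Oas and Oasl genes lie on chromosome 5. Their products make an RNA alarm signal on contact with double-stranded RNA or are inactive relatives. Of them *Oas3* alone was higher at 6 weeks in both sexes, where 12.9% of all genes were. It was 0.300, 0.492 and 0.668 CPM in male controls and 1.17, 1.52 and 2.01 CPM at 6 weeks, and 0.344, 0.242, 0.550 and 0.554 CPM in female controls and 1.47, 2.28, 1.90 and 1.39 CPM at 6 weeks. The groups did not overlap, and the log2 fold change was 1.06 ± 0.30 in males and 1.29 ± 0.18 in females. *Oas1g*, which encodes a further family member, was higher in both sexes at 1 and 3 weeks, the male 3-week call being lost without replicate 1 (adjusted p = 0.0498 with it and 0.169 without it, limma). At 6 weeks it was called against control in females only, and not without the 5 libraries, and in males against uninduced (0.73 ± 0.21, adjusted p = 0.0181, limma). *Oas1b* was 0.816, 0.808 and 1.26 CPM in the 3 female 6-week libraries that stood apart and 2.42 CPM in the other, against 2.84 to 3.55 CPM in controls. Its female difference at 6 weeks was -1.09 ± 0.37, and -0.34 without the 5 libraries. Those 5 were set apart by their low *Oas1b*, so its smaller fall without them follows from that choice. *Oas2* was 9.95 to 16.1 CPM in those 5 libraries and 17.2 to 44.7 CPM in the other 15, and its female difference at 6 weeks went from -0.39 to 0.49 without them, neither past the test. In males *Oas2* rose by 0.74 ± 0.24. In females without the 5 libraries it was called higher at 1 and 3 weeks.

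Of the 2 Mx genes, which encode dynamin-like GTPases against viruses, *Mx1* rose and *Mx2* did not pass the test. *Mx1* was 0.562, 0.417 and 0.619 CPM in male controls and 1.46, 2.61 and 1.73 CPM at 6 weeks, and 0.904, 0.435, 0.600 and 0.665 CPM in female controls and 2.62, 1.46, 1.90 and 1.54 CPM at 6 weeks. The groups did not overlap, with log2 fold changes of 1.21 ± 0.23 and 1.04 ± 0.26. C57BL/6 strains are known to carry a defective *Mx1* allele, so this is a change in a transcript at a low level.

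The guanylate-binding proteins, GTPases that disrupt pathogen vacuoles, were lower in males and mixed in females. In males 5 of 10 tested were lower at 6 weeks (*Gbp3*, *Gbp4*, *Gbp5*, *Gbp7* and *Gbp9*, background 10.9%) and none higher (background 16.2%). The median log2 fold change of the 10 was -0.62. In females *Gbp4* and *Gbp9* were lower (background 21%) and *Gbp2* and *Gbp8* higher (background 21.7%) among 9 tested, with a median of -0.05. *Gbp4* was 35.0, 25.98 and 24.7 CPM in male controls, 11.3, 13.0, 16.1 and 13.9 CPM in uninduced males and 12.2, 8.72 and 13.1 CPM at 6 weeks. Female hearts had 14.2, 14.2, 12.1 and 12.3 CPM in controls, 21.2, 14.4, 10.4 and 10.2 CPM in uninduced hearts and 10.9, 6.27, 7.62 and 8.63 CPM at 6 weeks. The 6-week hearts lay below all controls, by -1.30 ± 0.33 on the log2 scale in males (adjusted p = 0.00598, limma) and -0.65 ± 0.20 in females (adjusted p = 0.0133, limma).

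Male controls lay above uninduced males as well for *Gbp4*. Against uninduced, *Gbp9* alone of the male Gbp genes was lower at 6 weeks (-0.53 ± 0.18, adjusted p = 0.0397, limma). *Gbp7* was 28.1, 20.8 and 21.4 CPM in male controls, 12.2 to 14.5 CPM in uninduced males and 9.10 to 13.0 CPM at 6 weeks, so its 6-week range overlapped that of uninduced hearts and not that of controls. In females *Gbp7* was called only against uninduced (-0.50 ± 0.16, adjusted p = 0.028, limma). *Gbp9* was 33.8 to 35.5 CPM in male controls and 14.6 to 17.8 CPM at 6 weeks, and 19.2 to 24.8 against 10.8 to 16.2 CPM in females, and was lower in both sexes against both reference groups. The female calls of *Gbp2*, *Gbp4*, *Gbp8* and *Gbp9* at 6 weeks were all lost without the 5 libraries.

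The immunity-related GTPases, which coat and break open the vacuoles of parasites, rose in females against control. There all 5 were higher at 1 week (background 15.3%) and at 6 weeks (background 21.7%), and 4 were higher at 3 weeks (background 16.8%). Against uninduced females *Ifi47* alone was higher at 6 weeks, and the median of the 5 was 0.17, compared with 0.79 against control. In males none passed the test at any week. All male groups shared one estimate of the spread, and replicate 1 at 3 weeks was high in these genes. The SE of *Igtp* at 3 weeks was 0.535 with that heart and 0.165 without it. Without it none of the 5 passed the test at 3 weeks either. Their log2 differences from control were then -0.05 for *Igtp*, -0.28 for *Irgm1*, 0.28 for *Irgm2*, 0.39 for *Ifi47* and 0.39 for *Iigp1*. Male *Ifi47* was 5.68, 6.11 and 6.34 CPM at 6 weeks, above the 2.58 to 4.33 CPM of controls. *Iigp1*, which encodes one of the effector GTPases, was 25.02, 23.5, 34.9 and 30.8 CPM in female controls, 57.8, 25.6, 46.9 and 41.1 CPM in uninduced females and 49.8, 41.8, 59.4 and 75.9 CPM at 6 weeks (log2 0.96 ± 0.20, adjusted p = 0.00084, limma). In males it was 52.5, 50.2 and 43.5 CPM in controls and 69.8, 45.0 and 37.8 CPM at 6 weeks, and the groups overlapped. *Ifi47* rose by 1.23 ± 0.15 and *Irgm2* by 0.79 ± 0.12 in females at 6 weeks, and both were still called without the 5 libraries, which *Igtp*, *Iigp1* and *Irgm1* were not. The difference in change between the sexes was not tested.

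A single male heart stood apart. In replicate 1 at 3 weeks *Igtp* was 197.6 CPM, against 17.7, 15.5 and 21.3 CPM in the other 3 hearts of its group and 13.7 to 22.7 CPM in controls. *Iigp1* was 283 CPM against 51.7 to 75.1 CPM, *Irgm2* 164 CPM against 32.2 to 43.6 CPM, *Gbp6* 132 CPM against 25.1 to 31.8 CPM, and *Gbp10* 35.2 CPM against 4.91 to 8.35 CPM. Of the 72 members 59 (81.9%) were higher in this heart than in all 3 others of its group, against 30.4% of all genes, and 14 (19.4%) were more than 2-fold above the highest of them on the log2(CPM + 0.5) scale, against 0.391%. Outside the families *Cxcl9*, a chemokine induced by interferon γ, was 18.4 CPM against 0.723 to 2.97 CPM. Of 5 marker genes of T and NK cells 4 were above the other 3 libraries and none more than 2-fold on that scale, although *Nkg7* (0.733 CPM against at most 0.307 CPM) and *Cd3g* (0.694 CPM against at most 0.307 CPM) were in CPM. *Il11* there was 529 CPM, against 336 to 422 CPM. With this heart left out, the log2 difference of *Igtp* from control at 3 weeks went from 0.81 to -0.05 (neither past the test). That of *Zbp1* went from 2.13 to 1.78 (both past it), and *Gbp3*, *Gbp4* and *Irf2bp2* became lower than control.

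**Figure D4:**
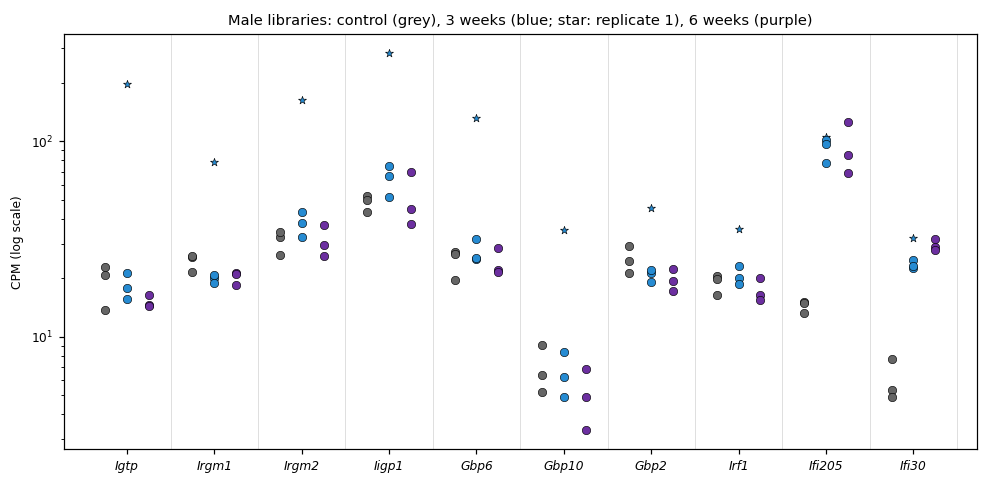
CPM (log axis) of 10 members in male control (grey), 3-week (blue) and 6-week (purple) libraries, with a star for replicate 1 at 3 weeks. The star lies far above all other points for the immunity-related GTPases, *Gbp6* and *Gbp10*, for example 197.6 CPM for *Igtp*, and close to the other 3-week points for *Ifi205*.

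Uninduced hearts differed from controls in few members. In males 2 were higher, *Ifi205* (log2 1.22 ± 0.18, adjusted p = 0.00126, limma) and *Ifi211* (0.90 ± 0.19, adjusted p = 0.0273, limma), against a background of 0.561%, and none was lower (background 0.0354%). In females 8 were higher, against 2.41%, and none lower (background 0.466%). These were *Ifi205* (1.45 ± 0.22), *Ifi211*, *Ifi204*, *Zbp1*, *Irf8*, *Irf5*, *Ifitm1* and *Irgm2*, all still called without the 5 libraries. Uninduced and control mice differ in tamoxifen, in the transgene and in *Il11*, so the parts of these cannot be told apart.

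Against uninduced instead of control, 20 members were higher at 6 weeks in males (background 13%) and 3 lower (background 7.4%), and 17 were higher in females (background 13.7%) and 5 lower (background 9.08%). Higher in both sexes were 15 (9.06% of all genes), among them *Ifi205*, *Ifi30*, *Zbp1*, *Irf5*, *Irf8*, *Oas3* and the 3 Ifitm genes, and *Gbp9*, *Ifit2* and *Rsad2* were lower in both (2.78% of all genes). Without the 5 libraries the female 6-week group is 1 heart, so a lost call can come from the lost replicates. There *Ifi204*, *Ifi27*, *Ifi30*, *Irf8* and *Zbp1* were called higher and *Ifit2*, *Rsad2* and *Oas1b* lower. *Ifi205*, *Irf5*, *Oas3*, the Ifitm genes and *Gbp9* lost their female call. In the remaining 6-week heart *Ifi205*, *Irf5*, *Oas3* and *Ifitm1* still lay above the remaining uninduced hearts and *Gbp9* below them. *Ifitm2* and *Ifitm3* overlapped them. Uninduced and control groups are both compared with the same 6-week hearts, so these calls are not independent of those above.

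**Figure D5:**
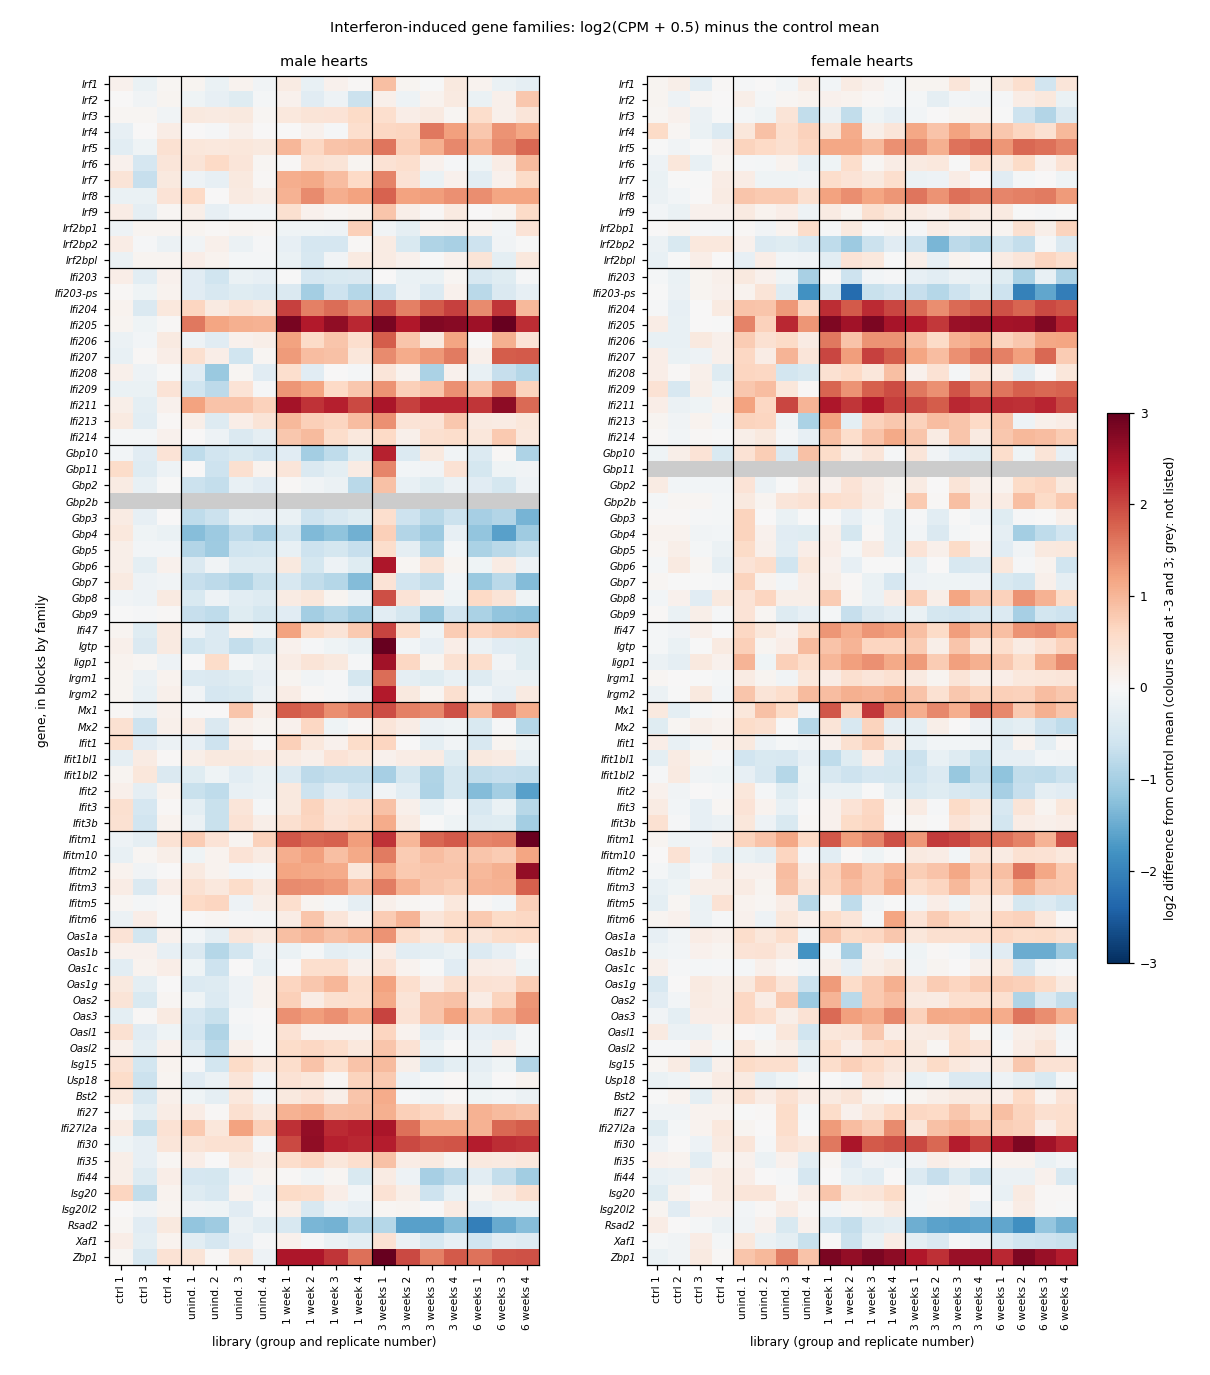
Log2(CPM + 0.5) minus the control mean for each member (rows, in blocks by family) in each library (columns, by group and replicate number) of males (left) and females (right), with red above and blue below control and grey where a gene is not listed. *Ifi204*, *Ifi205*, *Ifi207*, *Ifi209*, *Ifi211*, *Ifitm1*, *Ifitm2*, *Ifitm3*, *Ifi30* and *Zbp1* are red in the induced groups, *Rsad2* is blue, and replicate 1 of the male 3-week group is deep red for the immunity-related GTPases, *Gbp6* and *Gbp10*.

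The rest of the pathway was read from lists. None of 20 interferon genes of types I, II and III, *Ifnb1* and *Ifng* included, is in either table, so no level of a ligand was analysed here. Of 6 receptor genes *Ifnar2* was higher at 6 weeks in both sexes (log2 0.58 ± 0.14 in males and 0.95 ± 0.09 in females) and *Ifngr2* lower (-0.43 ± 0.15 and -0.48 ± 0.15). *Stat2* did not pass the test in either sex, and was 17.6 to 21.4 CPM in the 5 female libraries that stood apart and 22.8 to 38.1 CPM in the other 15.

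Of 13 measured sensors and adaptors 6 were higher at 6 weeks in males and none lower, and 6 were higher and 1 lower in females. *Sting1*, the adaptor that relays detection of cytosolic DNA, rose by 2.12 ± 0.19 in males and 2.42 ± 0.21 in females, and *Tlr9*, an endosomal DNA receptor, by 1.63 ± 0.21 and 2.35 ± 0.24. Of 6 negative regulators 3 were higher and 1 lower in males, and 4 higher and 1 lower in females, against the same background. *Socs3*, the feedback inhibitor of gp130 receptors, rose by 4.65 ± 0.26 and 4.56 ± 0.39, from 2.69 to 2.90 CPM in male controls to 65.0 to 94.4 CPM at 6 weeks. *Ptpn6*, a phosphatase of blood cells, rose by 1.69 ± 0.22 and 2.18 ± 0.13, and *Ptpn11*, a related phosphatase found in most cells, was lower (-0.63 ± 0.16 and -0.47 ± 0.13).

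Of 32 measured interferon-induced genes outside the named families, 4 were higher and 5 lower at 6 weeks in males (background 16.2% and 10.9%). In females 15 were higher and 4 lower (background 21.7% and 21%). *Epsti1*, an interferon-induced gene also expressed in macrophages, rose by 1.73 ± 0.27 and 2.54 ± 0.13, and *Ciita*, the master regulator of MHC class II genes, by 1.503 ± 0.23 and 2.71 ± 0.20. *Cmpk2*, a mitochondrial nucleotide kinase that is the neighbour of *Rsad2*, was lower, as *Rsad2* was, with -1.45 ± 0.25 and -1.20 ± 0.15. *Sp100*, a nuclear body protein, was lower by -0.44 ± 0.15 and -0.45 ± 0.13.

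Markers of several other cell types moved with these groups. At 6 weeks the background was 16.2% of all genes higher and 10.9% lower in males, and 21.7% and 21% in females. In bulk tissue a change in the number of cells of a type and in the RNA per cell cannot be told apart. Of 10 macrophage markers 9 were higher at 6 weeks in both sexes, and their summed level was 242 to 388 CPM in male controls, 350.3 to 490.2 CPM in uninduced males and 971 to 1386 CPM at 6 weeks, and 227 to 292, 408 to 558 and 1187 to 1350.0 CPM in females. In uninduced females 9 of 10 of these markers were also higher (background 2.41%), and in uninduced males none (background 0.561%). Endothelial markers were lower at 6 weeks for 4 of 8 genes in males and 5 of 8 in females, with a summed level of 1049 to 1199 CPM in male controls and 695 to 891 CPM at 6 weeks, and 987 to 1109 against 643 to 851 CPM in females. Fibroblast markers were higher for 5 of 6 genes in both sexes. Cardiomyocyte markers were lower for 1 of 8 genes in males and 4 of 8 in females, and none was higher. Their sums were 52330 to 63990 CPM in male controls and 32920 to 44180 CPM at 6 weeks. In females the sums were 37280 to 55620 CPM in controls and 32950 to 42300 CPM at 6 weeks, which overlap. T and NK cell markers were higher for 2 of 5 genes in males and 5 of 7 in females, with sums of 1.46 to 3.52 CPM in male controls and 7.24 to 9.59 CPM at 6 weeks, and 1.74 to 3.75 against 9.46 to 16.6 CPM in females. Monocyte and neutrophil markers were higher for 4 of 6 genes in males and 3 of 6 in females, with sums of 13.9 to 17.3 against 43.6 to 49.8 CPM in males and 11.9 to 22.5 against 40.3 to 49.2 CPM in females. Markers of plasmacytoid dendritic cells, of which *Irf8* and *Bst2* are members here, were higher for 2 of 4 genes in males and 3 of 4 in females, while their sums, mostly *Tcf4*, overlapped between controls and 6-week hearts. B cell markers were higher for 1 of 3 genes in males and 1 of 4 in females, and none was lower. Their sums overlapped, with 1.12 to 2.23 CPM in male controls and 1.80 to 4.22 CPM at 6 weeks, and 1.79 to 4.65 against 2.25 to 4.30 CPM in females. The part of any of these cell types in the changes of the interferon-induced genes was not tested.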

How the data were processed

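Poly(A) RNA from single hearts, 1 library per mouse, was sequenced with a strand-specific kit. The authors aligned reads with STAR to the mouse genome (GRCm39), counted them per gene with featureCounts and normalised them with edgeR. The deposited signal values, 1 table per sex, are CPM (counts scaled to library size) after that normalisation, with column sums of 817395 to 1196278. Whole reads could be recovered for 100% of values (within 0.001 of a whole number). Rows without a symbol (29 male, 24 female) were kept among all genes.

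Sexes were fitted separately, since their tables were normalised separately. All 5 groups of a sex entered one limma fit of log2(CPM + 0.5), whose prior variance followed mean expression, over genes with at least 0.5 CPM in at least 3 libraries, and p-values were adjusted by Benjamini-Hochberg over all genes tested. Fold changes on this scale understate those of low genes. The members and lists were chosen with earlier results of these data known. Named genes were, in each family, the members with the largest rise and fall at 6 weeks (mean of both sexes) among those past the test in the same direction in both, or the member with the highest mean CPM in a family with none, the same from each list, *Irf1*, *Irf7*, *Irf9*, *Isg15* and *Mx1*, and members called in opposite directions or only against uninduced. *Igtp*, *Irgm2*, *Gbp6*, *Gbp10*, *Gbp7*, *Ifi211*, *Irf5*, *Usp18*, *Oas2*, *Zbp1*, *Irf8*, *Irf4*, *Ifit1*, *Ifi204*, *Gbp9*, *Ifi47*, *Oas1b*, *Ifi203-ps*, *Ifi203* and, outside the families, *Cxcl9* were added after their values were seen. Replicate numbers did not pair the samples (mean r of deviations 0.0132 in males and 0.0255 in females). No libraries were duplicates (lowest chi-square per gene 12.5 in males and 7.04 in females). Alternatives were other pseudocounts, filters, scaling and fits, edgeR and DESeq2 on recovered reads, a fold minimum, a replicate block and leaving out libraries. Scripts were tested on simulated data. Promoters came from RefSeq (GRCm38.p6). Tools were R 4.3.3, limma 3.58.1, edgeR 4.0.16, DESeq2 1.42.0, pandas 2.3.3, numpy 2.4.6 and matplotlib 3.10.9. The results of 1 gene on the pathway lists are not reported here.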

Additional observations from a re-analysis of the deposited data

Results flagged for a closer look

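Within groups of 4 libraries, 27 values lay far from the other 3 by Dixon's ratio, among 376 groups checked, of which chance alone gives about 1 in 20. Some of the genes checked were chosen after their values were seen, so the count cannot be judged against that rate. Replicate 1 of the male 3-week group was the highest for *Iigp1* (283 CPM), *Igtp* (197.6 CPM), *Irgm2* (164 CPM), *Gbp6* (132 CPM), *Gbp10* (35.2 CPM) and *Usp18* (8.06 CPM). In uninduced females, replicate 3 was the highest for *Socs3* (56.1 CPM), *Sting1* (17.6 CPM) and *Zbp1* (4.19 CPM), replicate 1 for *Irf2bp2* (80.9 CPM) and *Irf7* (23.0 CPM), and replicate 4 was the lowest for *Stat2* (17.6 CPM), *Isg15* (3.48 CPM) and *Oas1b* (0.567 CPM). In females at 1 week, replicate 2 was the lowest for *Ifi203* (24.96 CPM) and *Ifi203-ps* (1.71 CPM) and replicate 1 for *Tlr9* (1.35 CPM). In females at 3 weeks, replicate 3 was the highest for *Irf1* (24.6 CPM) and replicate 1 the lowest for *Oas3* (0.967 CPM). In females at 6 weeks, replicate 1 was the highest for *Stat2* (31.7 CPM) and *Irf9* (27.99 CPM) and replicate 3 for *Tlr9* (6.36 CPM). In males at 1 week, replicate 4 was the highest for *Il11* (712 CPM) and replicate 1 for *Ifi203* (40.7 CPM) and *Irf9* (31.7 CPM). In uninduced males, replicate 2 was the highest for *Gbp6* (22.2 CPM) and replicate 4 the lowest for *Irf3* (25.03 CPM).

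For some of the genes named in the text every heart of a group lay above the control mean in one sex and every heart below it in the other, and the difference between the sexes was not tested. Their log2 differences from control at 6 weeks were those of *Isg15* (-0.43 in males, 0.49 in females), *Irf3* (0.36 and -0.49) and *Igtp* (-0.29 and 0.46). At 1 week *Irf3* was 0.43 in males and -0.33 in females, and at 3 weeks *Gbp6* was 0.74 and -0.28. In uninduced hearts these were *Oas3* (-0.29 and 0.43), *Igtp* (-0.55 and 0.49) and *Irgm2* (-0.31 and 0.68).

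Values in the 2 male libraries of conflicting labels were compared with male controls for the member with the largest rise in each family. Members that fell are given for these libraries under the other observations. In the library titled control and described as 6 weeks those above all controls were *Ifi205* (93.2 CPM), *Ifi30* (27.9 CPM), *Irf5* (11.4 CPM), *Ifitm1* (6.56 CPM), *Mx1* (2.34 CPM) and *Oas3* (1.19 CPM). In the library titled 6 weeks and described as control those above all controls were *Ifi205* (20.9 CPM) and *Ifi30* (7.72 CPM, against 7.65 CPM in the highest control).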

How the results depend on the processing

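The numbers of members called stayed within 1.5 times of those reported in all 12 comparisons with a pseudocount of 0.1, either filter, median-of-ratios scaling and edgeR. With a log2 fold change of at least 1 required, fewer were called by construction: in males 14 at 1 week, 1 in uninduced hearts and 12 at 6 weeks against uninduced, and in females 17 at 1 week, 15 at 3 weeks, 17 at 6 weeks, 3 in uninduced hearts, 5 at 6 weeks against uninduced and 0 at 6 weeks against 1 week. In uninduced males a pseudocount of 2 gave 1 call and a fit of only the 2 groups 6, and DESeq2 gave 5 calls in males at 6 weeks against 1 week. Without the 5 female libraries that stood apart, an alternative chosen after seeing the data, 23 members were called at 6 weeks against control, 8 against uninduced and 1 against 1 week, and the female 6-week difference reversed for *Stat2* (0.23), *Gbp6* (0.35) and *Oas2* (0.49). The cause was not tested. Leaving out 1 replicate number from every group gave, in males, 19 to 34 calls at 1 week (19 without replicate 3), 1 to 3 in uninduced hearts (1 without replicate 1, 2 or 3) and 15 to 27 at 6 weeks against uninduced (15 without replicate 4). In females it gave 5 to 7 in uninduced hearts (5 without replicate 1), 14 to 24 at 6 weeks against uninduced (14 without replicate 2) and 1 to 2 against 1 week (1 without replicate 1 or 4). Signs at 6 weeks that turned when a replicate was left out were, with their ranges, in males *Iigp1* (-0.18 to 0.13), *Irf2bp2* (-0.45 to 0.054), *Irf7* (-0.21 to 0.54), *Stat2* (-0.31 to 0.05), *Irgm2* (-0.085 to 0.045), *Gbp6* (-0.30 to 0.12), *Gbp10* (-0.83 to 0.011) and *Usp18* (-0.37 to 0.33), and in females *Irf9* (-0.041 to 0.13), *Gbp6* (-0.19 to 0.044) and *Gbp10* (-0.038 to 0.28), none of them past the test with all replicates. Replicate numbers did not pair the samples, and with a replicate block 27 male and 41 female members were called at 6 weeks, against 28 and 42 without it. With 3 or 4 hearts a group and members near 1 CPM, small differences may not have been detectable.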

Other observations

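The 2 male libraries with conflicting labels entered no comparison. The library titled control and described as 6 weeks had 511 CPM of *Il11*, 93.2 CPM of *Ifi205*, 27.9 CPM of *Ifi30*, 9.52 CPM of *Rsad2*, 10.01 CPM of *Ifit2* and 11.04 CPM of *Gbp4*. The library titled 6 weeks and described as control had 0.597 CPM of *Il11*, 20.9 CPM of *Ifi205*, 7.72 CPM of *Ifi30*, 16.99 CPM of *Rsad2*, 13.0 CPM of *Ifit2* and 14.6 CPM of *Gbp4*. It lay below all male controls for *Rsad2*, *Ifit2* and *Gbp4*. So it did for *Gbp7* (12.6 against 20.8 to 28.1 CPM) and *Gbp9* (16.3 against 33.8 to 35.5 CPM). The falls of these genes in males against control therefore rest on the control libraries that were kept.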
